A study of Mus musculus with 12 samples.

Results

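Cells held for 10 min at 44 °C were compared with cells held for 10 min at 40 °C, a step between a strong and a mild heating, across all genes. The comparison rested on 8 of the series' 12 libraries, 4 at 44 °C and 4 at 40 °C, chosen by the temperature in their labels and by no measured value. The cells were wild-type ATDC5, a mouse line derived from a teratocarcinoma and labelled as cartilage progenitor cells, which serves as a culture model of chondrocyte differentiation. All 3 groups of the study grew at 37 °C in high-glucose medium with serum and differed in 1 exposure: 10 min at 37 °C, 40 °C or 44 °C. The 37 °C libraries entered here as levels set beside the other 2 groups and in the shared estimate of spread. The series design calls the 4 samples of a group biological replicates; all come from 1 established line, and the interval between the exposure and the RNA extraction was not given. The series title states the aim as the effect of temperature on chondrocyte growth.

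In heated mammalian cells, unfolded proteins free the transcription factor HSF1 from chaperones. HSF1 then binds heat shock elements in front of genes for cytosolic chaperones such as HSP70 and the small heat shock proteins. The endoplasmic reticulum (ER) has its own set of chaperones, led by BiP (Hspa5), which the factors ATF6 and XBP1 control through the ER stress response element. Interferon-stimulated genes, which carry antiviral and antigen presentation functions, are driven by STAT and IRF factors through the interferon-stimulated response element. Heating is also known to slow translation and ribosome assembly in many cells.

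Counts per library summed to between 16269026 and 19303450 at 40 °C and between 16606597 and 17612087 at 44 °C, and levels are given as CPM, counts scaled to a common library size after TMM normalization, and as mean ± SD of 4 libraries where no single values are given. Summed marker levels, and the levels of Col1a1, Cd68 and Fyb, were scaled by library totals without TMM. A count of 0 allows up to 3 counts, or between 0.155 and 0.184 CPM in these 8 libraries, counting error only. Of 16 mesenchymal markers, Vim, Fn1, S100a6, Prrx1 and Sox9 were among those detected, while 2, Thy1 and Col1a2, never passed 10 counts in any library. The cartilage matrix genes Col2a1 and Acan were near 0.994 and 1.65 CPM at 40 °C and Col1a1 near 1.97 CPM. Libraries also varied within their groups along 1 shared axis, which took up 29.8% of that variance. There 40 °C replicate 2 (1.56) and 44 °C replicates 2 (1.61) and 4 (1.47) lay at the high end and 44 °C replicate 1 (−1.14) and 40 °C replicate 4 (−1.02) at the low end. The group means on it were 0.0128 ± 1.10 at 40 °C and 0.44 ± 1.33 at 44 °C (SD, n = 4). With the axis as a covariate that keeps the group means, an alternative added after seeing the data, 2535 genes were called, among them all 724 called without it. The axis was derived from these same counts and takes out part of their within-group spread, so the added calls are no check of the 724. These are bulk libraries, in which fewer cells of a type and less RNA per cell cannot be told apart.

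Of the 14424 genes tested, 724 (5.02%) differed between 44 °C and 40 °C at an adjusted p under 0.05 (edgeR's quasi-likelihood test with Benjamini-Hochberg adjustment over all genes tested). Genes that rose at 44 °C numbered 271 (1.88%) and genes that fell 453 (3.14%). The changes were mostly small: the median size among called genes was 0.348 on the log2 scale, and only 8 genes rose and 20 fell by at least 2-fold. At the top stood the chaperone genes Hspb1 and Hspa1a. Among the genes that fell were interferon-stimulated genes, MHC class I genes, ER chaperones and fibrillar collagens. The groups of 4 did not overlap for 1546 genes (10.7%), 761 higher and 785 lower at 44 °C. Genes named below for the largest changes had groups apart by the rule that chose them. The gene lists below were chosen with earlier results of these data known, so their shares describe the members and were not tested.

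**Figure D1:**
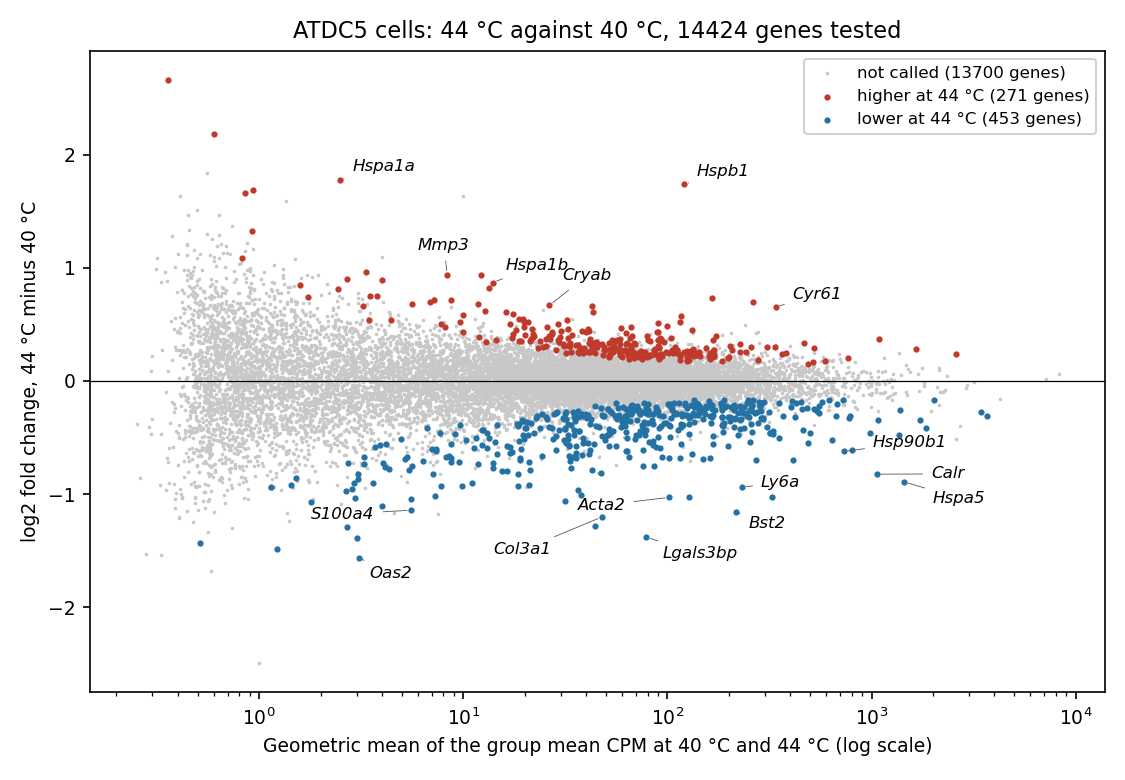
Difference between 44 °C and 40 °C for 14424 genes. The x axis is the geometric mean of the group mean levels in CPM (log scale), the y axis the log2 fold change (44 °C minus 40 °C), and each point a gene, in red for the 271 that rose, blue for the 453 that fell and grey for the rest. Hspb1 stands alone among well-expressed genes at the top, and the lower side holds abundant ER genes such as Hspa5 and Calr.

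In the same fit, 40 °C against 37 °C gave 0 called genes with edgeR, 752 at an unadjusted p under 0.05 and 4 called genes with DESeq2, and 44 °C against 37 °C gave 1975. The contrasts share libraries and are set side by side only. Of the 724 genes called between 44 °C and 40 °C, 641 were also called with the same sign between 44 °C and 37 °C, and 83 were not. Leaving out 1 library changed the number of calls by over 1.5 times in 6 cases. Omission of 40 °C replicate 1, 3 or 4 left 394, 421 or 420 calls, omission of 44 °C replicate 2 or 4 left 426 or 456, and omission of 44 °C replicate 1 gave 1265. With library totals in place of TMM the split moved from 37.4% to 52.7% higher (396 higher, 355 lower), and the median of all genes moved from 0.01 to 0.032.

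**Figure D2:**
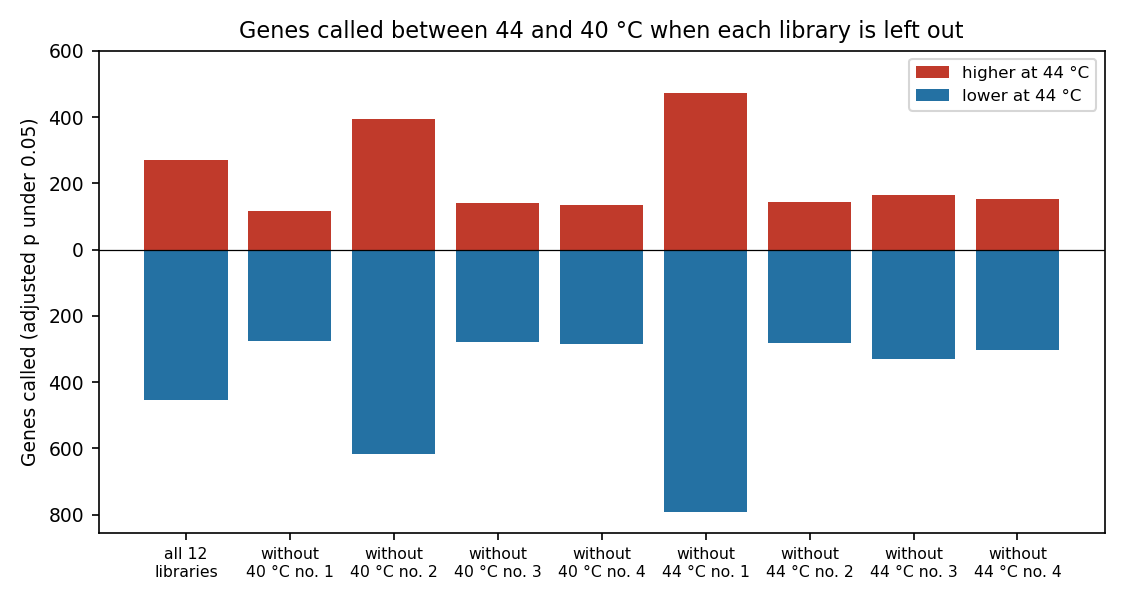
Genes called between 44 °C and 40 °C with all 12 libraries and with each of the 8 heated libraries left out in turn. Bars above 0 count genes higher at 44 °C and bars below 0 genes lower; calls were fewest without 40 °C replicate 1 (117 and 277) and most without 44 °C replicate 1 (474 and 791).

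Among cytosolic chaperones, a few stress-inducible genes rose at 44 °C and most of the list did not pass the test. Of 47 heat shock genes on the list 45 were measured, of which 5 rose and 3 fell (17.8% called, against 5.02% of all genes), with a median log2 fold change of −0.025 (all genes 0.01). Hspb1 encodes HSP27 (HSPB1), a small heat shock protein that holds unfolded proteins and binds actin. Its gene (ENSMUSG00000004951, chr5:135887919-135889563, mm10) had 65.6, 61.1, 63.8 and 75.01 CPM in replicates 1 to 4 at 40 °C and 252, 224, 198 and 211 CPM in those at 44 °C. Every 44 °C library lay above every 40 °C library, by 3.33-fold on average (1.74 ± 0.092 SE on the log2 scale, adjusted p = 1.31e-07; fold changes below have the same form), while the 37 °C mean of 71.3 CPM lay close to that at 40 °C. The inducible HSP70 genes Hspa1a and Hspa1b rose from far lower levels. Hspa1a (ENSMUSG00000091971, chr17:34969190-34972156) had 1.25, 1.08, 1.302 and 1.71 CPM at 40 °C and 6.19, 5.101, 3.103 and 4.06 CPM at 44 °C (1.78 ± 0.25 on the log2 scale, adjusted p = 0.00106). Hspa1b (ENSMUSG00000090877, chr17:34956436-34959238) had 9.66, 10.01, 10.3 and 11.3 CPM at 40 °C and 20.3, 17.6, 19.3 and 18.1 CPM at 44 °C (0.87 ± 0.088 on the log2 scale, adjusted p = 6.67e-05). Both pairs of groups were apart. The 2 genes are near-identical copies, so the split of reads between them is uncertain.

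Cryab, the small heat shock protein alphaB-crystallin, had 20.3, 21.5, 20.04 and 21.96 CPM at 40 °C and 37.02, 32.4, 31.3 and 32.5 CPM at 44 °C (0.67 ± 0.083 on the log2 scale, adjusted p = 0.000521), again with no overlap. Hspa14, a ribosome-associated HSP70 relative named after its values were seen, rose by a smaller step (0.26 ± 0.063 on the log2 scale, adjusted p = 0.0296), and its call was lost when any of 40 °C replicates 1 and 4, 44 °C replicates 2, 3 and 4 or 37 °C replicate 4 was left out. The genes that fell were Hspb8, Bag3 and Hspa13, the last an HSP70 relative of microsomes. Hspb8, a small heat shock protein that works with BAG3 in chaperone-assisted autophagy, went from 117 ± 4.41 to 89.04 ± 4.06 CPM (−0.39 ± 0.05 on the log2 scale, adjusted p = 0.000621). Bag3, named like Hspa13 after its values were seen, fell alongside (−0.29 ± 0.067 on the log2 scale, adjusted p = 0.0196), and its call was lost without 40 °C replicate 1, 44 °C replicate 2 or 44 °C replicate 4.

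Several other chaperone genes, and the gene of HSF1, did not pass the test. Hspa8, the constitutive HSC70, had 2067, 2373, 2112 and 2007 CPM at 40 °C and 1451, 2007, 1682 and 1961 CPM at 44 °C (−0.27 ± 0.099 on the log2 scale, adjusted p = 0.138), with overlapping groups. Hsph1, the HSP110 exchange factor, ranged over 203 to 305 CPM at 40 °C and 147 to 247 CPM at 44 °C (−0.22 ± 0.16 on the log2 scale, adjusted p = 0.475). Dnajb1, the HSP40 partner of inducible HSP70, was at 141 ± 3.71 and 129 ± 5.07 CPM (−0.13 ± 0.052 on the log2 scale, adjusted p = 0.189). Hsf1 itself was at 90.2 ± 7.21 and 102 ± 10.4 CPM (0.18 ± 0.079 on the log2 scale, adjusted p = 0.211), and Hsp90aa1, inducible HSP90, named after its values were seen, at 2296 ± 246 and 2373 ± 206 CPM (0.05 ± 0.078 on the log2 scale, adjusted p = 0.784). None of 14 mitochondrial chaperone genes and none of 14 genes of the TRiC chaperonin and prefoldin was called, with medians of 0.093 and 0.086.

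Promoter letters were read from RefSeq (GRCm38.p6, the mm10 assembly) in the 250 bases before the RefSeq start nearest to each gene's deposited start, which 10113 of the 14424 tested genes had. For 7666 of these the 2 starts lay within 100 bases of each other. Distances to the start below are from the RefSeq start. A heat shock element was taken as 2 facing units, GAANNTTC or TTCNNGAA, on both strands; the 2 forms can share letters, and this short form was chosen after a longer one had matched few promoters. It was present in 1004 of 10113 promoters (9.93%) and in 10 of 37 of the heat shock list (27.0%). On the list it was in 3 of the 4 that rose, 7 of the 31 not called and neither of the 2 that fell. Over all genes it was in 22 of the 207 that rose (10.6%), 27 of the 357 that fell (7.56%) and 955 of the 9549 not called (10.0%). The promoters of Hspb1 (chr5:135887669-135887918, plus strand) and Hspa1b (chr17:34959239-34959488, minus strand) are shown as 2 chaperone genes that rose, with the matches in capitals. The matches lie 117 to 110 and 97 to 90 bases before the start in Hspb1 and 104 to 97 bases before it in Hspa1b.
Hspb1: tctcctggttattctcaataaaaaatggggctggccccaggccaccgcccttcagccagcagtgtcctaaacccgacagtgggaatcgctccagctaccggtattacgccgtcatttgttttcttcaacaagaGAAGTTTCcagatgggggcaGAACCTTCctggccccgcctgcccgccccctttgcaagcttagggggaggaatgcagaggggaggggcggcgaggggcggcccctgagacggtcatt
Hspa1b: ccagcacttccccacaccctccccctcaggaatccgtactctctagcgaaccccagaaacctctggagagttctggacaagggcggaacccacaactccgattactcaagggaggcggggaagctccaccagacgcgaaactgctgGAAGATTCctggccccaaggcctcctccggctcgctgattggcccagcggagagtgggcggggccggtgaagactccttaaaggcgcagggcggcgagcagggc
Among list members with a match that were not called stood Hsph1, Dnaja1 and Fkbp4, so a match and a call did not go together one to one.

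The ER chaperones moved the other way. Of 35 measured genes of the ER unfolded protein response list, 16 fell and none rose (45.7% called, against 3.14% of all genes that fell), with a median log2 fold change of −0.233 and 32 of 35 below 0. Hspa5 encodes BiP, the ER HSP70 that holds newly made secretory proteins. Hspa5 (ENSMUSG00000026864, chr2:34771970-34777547) had 1980, 1968, 2006 and 1890 CPM at 40 °C and 974, 1064, 1088 and 1102 CPM at 44 °C. The groups were far apart (−0.89 ± 0.055 on the log2 scale, adjusted p = 5.31e-07), and the 37 °C mean was 1903 CPM. Calr, the calcium-binding lectin chaperone calreticulin (ENSMUSG00000003814, chr8:84841850-84846934), had 1454, 1299, 1430 and 1465 CPM at 40 °C and 763, 756, 824 and 847 CPM at 44 °C (−0.82 ± 0.053 on the log2 scale, adjusted p = 6.87e-07). Hsp90b1, the ER HSP90 known as GRP94, had 919, 858, 941 and 909 CPM at 40 °C and 598, 550.3, 644 and 562 CPM at 44 °C (−0.62 ± 0.054 on the log2 scale, adjusted p = 1.68e-05). Manf, a secreted ER stress protein, went from 205 ± 15.6 to 128 ± 5.69 CPM (−0.68 ± 0.061 on the log2 scale, adjusted p = 2.02e-05). In all 4 genes the highest 44 °C library lay below the lowest 40 °C library.

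The disulfide isomerases that fold secreted proteins, named like the next genes after their values were seen, fell as well. Pdia4 went from 300.2 to 372 CPM to 198 to 230.2 CPM (−0.70 ± 0.071 on the log2 scale, adjusted p = 6.67e-05). Pdia6 went from 460.3 to 576 CPM to 295 to 354 CPM (−0.70 ± 0.071 on the log2 scale, adjusted p = 6.90e-05), and Pdia3 from 363 to 383 CPM to 261 to 284 CPM (−0.46 ± 0.042 on the log2 scale, adjusted p = 2.26e-05). Xbp1, which encodes a transcription factor of the unfolded protein response, fell from 98.2 ± 8.96 to 58.3 ± 10.5 CPM (−0.75 ± 0.1 on the log2 scale, adjusted p = 0.000892), and Sdf2l1, a BiP cofactor, from 56.1 ± 6.48 to 32.5 ± 4.55 CPM (−0.79 ± 0.097 on the log2 scale, adjusted p = 0.0005199). Canx, the membrane-bound relative of calreticulin, was at 675 ± 32.6 and 606 ± 54.9 CPM and was not called (−0.16 ± 0.067 on the log2 scale, adjusted p = 0.202). Ddit3, the stress factor CHOP, was at 10.4 ± 1.703 and 11.1 ± 1.26 CPM (0.10 ± 0.13 on the log2 scale, adjusted p = 0.732). Of 22 measured genes of the ATF4 integrated stress response, 3 fell and none rose (13.6% called, against 3.14% of all genes that fell), with a median of 0.035 and 12 of 22 above 0; they were Slc7a11 (cystine import, −0.72 ± 0.11 on the log2 scale, adjusted p = 0.00162), Aldh1l2 (mitochondrial folate enzyme, −0.46 ± 0.068 on the log2 scale, adjusted p = 0.00152) and Cebpb (−0.37 ± 0.097 on the log2 scale, adjusted p = 0.0385), whose call was lost without any 1 of the 8 heated libraries other than 40 °C replicate 2 and 44 °C replicate 1, and without 37 °C replicate 2 or 4.

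The ER stress response element, searched as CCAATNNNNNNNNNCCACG on both strands, was in 16 of 10113 promoters (0.158%). Of 27 ER list promoters 9 held it (33.3%), 5 of the 14 that fell and 4 of the 13 not called. The promoters of Hspa5 (chr2:34771840-34772089, plus strand) and Hsp90b1 (chr10:86705445-86705694, minus strand) are shown, as abundant members of the list that fell, with the element in capitals. It lies 65 to 47 bases before the RefSeq start in Hspa5, and Hsp90b1 holds a copy on each strand, 212 to 194 and 107 to 89 bases before its own. These RefSeq starts lie 120 (Hspa5) and 65 (Hsp90b1) bases from the deposited gene starts. The Hspa5 element thus falls within the deposited span of that gene.
Hspa5: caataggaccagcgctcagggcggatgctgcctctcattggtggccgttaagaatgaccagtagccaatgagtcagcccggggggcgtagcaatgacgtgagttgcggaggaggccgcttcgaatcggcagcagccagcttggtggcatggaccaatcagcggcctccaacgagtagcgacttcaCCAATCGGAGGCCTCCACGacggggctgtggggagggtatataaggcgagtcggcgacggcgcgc
Hsp90b1: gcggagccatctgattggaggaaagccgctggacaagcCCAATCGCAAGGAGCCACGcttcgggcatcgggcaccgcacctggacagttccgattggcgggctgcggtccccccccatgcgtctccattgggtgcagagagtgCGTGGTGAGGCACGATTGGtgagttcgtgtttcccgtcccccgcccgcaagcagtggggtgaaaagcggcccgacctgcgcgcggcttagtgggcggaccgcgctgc
Over all genes with a promoter the element was in 5 of the 357 that fell (1.40%), the 5 of the ER list, in 11 of the 9549 not called (0.115%) and in none of the 207 that rose. These shares describe the promoters and were not tested.

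Interferon-stimulated genes were lower at 44 °C. Of 37 measured, 16 fell and none rose (43.2% called, against 3.14% of all genes that fell), with a median log2 fold change of −0.494 and 36 of 37 below 0. The number that fell was 11 without 44 °C replicate 2 or 4 and 24 without 44 °C replicate 1. Bst2, tetherin, which holds budding virus at the cell surface (ENSMUSG00000046718, chr8:71534255-71537456), had 319, 296, 334 and 340.1 CPM at 40 °C and 169, 127, 135 and 148 CPM at 44 °C. Each 44 °C library was far below the 40 °C range (−1.16 ± 0.077 on the log2 scale, adjusted p = 8.31e-07). Ifitm3, a membrane protein that blocks viral entry, had 470.1, 429.5, 456 and 495 CPM at 40 °C and 267, 190.2, 239 and 215 CPM at 44 °C (−1.02 ± 0.084 on the log2 scale, adjusted p = 9.60e-06). Irf7, a transcription factor of the interferon response, had 62.4, 50.4, 74.1 and 88.4 CPM at 40 °C and 41.99, 18.7, 32.4 and 20.5 CPM at 44 °C (−1.28 ± 0.23 on the log2 scale, adjusted p = 0.00459). The 44 °C values of Irf7 were apart from the 40 °C values but spread widely, with replicate 1 the highest of its group.

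Oas2, a sensor enzyme of double-stranded RNA, went from 5.28 ± 1.05 to 1.79 ± 0.619 CPM (−1.56 ± 0.23 on the log2 scale, adjusted p = 0.00152), the lowest value among named genes. Gbp3, a guanylate-binding protein, went from 53.4 ± 1.48 to 26.6 ± 6.27 CPM (−1.01 ± 0.12 on the log2 scale, adjusted p = 0.000485), and Ddx58, the RNA sensor RIG-I, from 103 ± 2.299 to 69.5 ± 10.7 CPM (−0.57 ± 0.087 on the log2 scale, adjusted p = 0.001903). Isg15, a ubiquitin-like modifier named after its values were seen, went from 22.6 to 27.8 CPM to 11.5 to 19.7 CPM (−0.82 ± 0.14 on the log2 scale, adjusted p = 0.00383). Lgals3bp, a secreted glycoprotein, fell from 102 to 145 CPM to 39.9 to 62.9 CPM (−1.38 ± 0.14 on the log2 scale, adjusted p = 5.94e-05).

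The MHC class I pathway, which shows peptides to T cells, held the highest share of called genes of any list with at least 10 measured members. Of 16 measured genes 11 fell (68.8% called, against 3.14% of all genes that fell), all 16 lay below 0, and the median was −0.547. Psmb9, a catalytic subunit of the immunoproteasome, went from 5.26 to 7.02 CPM to 2.12 to 3.33 CPM (−1.11 ± 0.2 on the log2 scale, adjusted p = 0.00528). H2-T23, a non-classical class I gene, fell from 45.7 ± 10.04 to 21.9 ± 4.74 CPM (−1.06 ± 0.18 on the log2 scale, adjusted p = 0.00329), and H2-K1, a classical heavy chain, from 146 ± 21.3 to 91.2 ± 13.4 CPM (−0.69 ± 0.11 on the log2 scale, adjusted p = 0.00206). Heavy chain genes of this family are close in sequence, so reads may be split among them. B2m, the shared light chain, named after its values were seen, went from 534 ± 40.98 to 396 ± 45.7 CPM (−0.43 ± 0.085 on the log2 scale, adjusted p = 0.00834). Of the 32 genes of the standard proteasome none was called, with a median of 0.031. The 12 leukocyte markers summed to between 27 and 38.9 CPM at 40 °C and between 21.5 and 37.6 CPM at 44 °C (exact permutation p = 0.229, two-sided, adjusted over 10 such sums p = 0.382). Of these 12, 9 never passed 10 counts in any library and Adgre1, Cd3e and Tyrobp were at 0. Most of the sum was Cd68, at 25.1 CPM at 40 °C and 24.1 CPM at 44 °C. Mpeg1 fell from 4.888 ± 1.115 to 1.865 ± 0.5133 CPM (−1.39 ± 0.24 on the log2 scale, adjusted p = 0.004015), with groups apart. Fyb, named after its values were seen, averaged 4.08 and 2.28 CPM, and all 3 measured markers lay below 0.

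The interferon-stimulated response element, searched as GAAANNGAAA on both strands with overlapping matches counted, was in 265 of 10113 promoters (2.62%). It was in 13 of 27 promoters of the interferon list (48.1%), 5 of the 10 that fell and 8 of the 17 not called, and in 2 of 14 of the MHC class I list. The promoters of Bst2 (chr8:71537473-71537722, minus strand) and Isg15 (chr4:156200819-156201068, minus strand) are shown as a strongly lowered and a classical member, with the overlapping matches in capitals. They cover bases 130 to 115 before the start of Bst2 and 78 to 57 before that of Isg15.
Bst2: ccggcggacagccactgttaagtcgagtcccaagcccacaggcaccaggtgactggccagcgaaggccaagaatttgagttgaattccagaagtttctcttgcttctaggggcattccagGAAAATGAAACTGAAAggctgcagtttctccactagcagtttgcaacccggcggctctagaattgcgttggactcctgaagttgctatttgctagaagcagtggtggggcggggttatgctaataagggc
Isg15: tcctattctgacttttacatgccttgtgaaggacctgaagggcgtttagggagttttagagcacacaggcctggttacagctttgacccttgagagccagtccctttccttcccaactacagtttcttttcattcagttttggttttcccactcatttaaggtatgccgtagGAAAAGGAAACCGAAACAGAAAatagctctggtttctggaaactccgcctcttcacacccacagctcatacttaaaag
Over all genes with a promoter the match was in 24 of the 357 that fell (6.72%), in 237 of the 9549 not called (2.48%) and in 4 of the 207 that rose (1.93%), shares that were not tested.

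**Figure D3:**
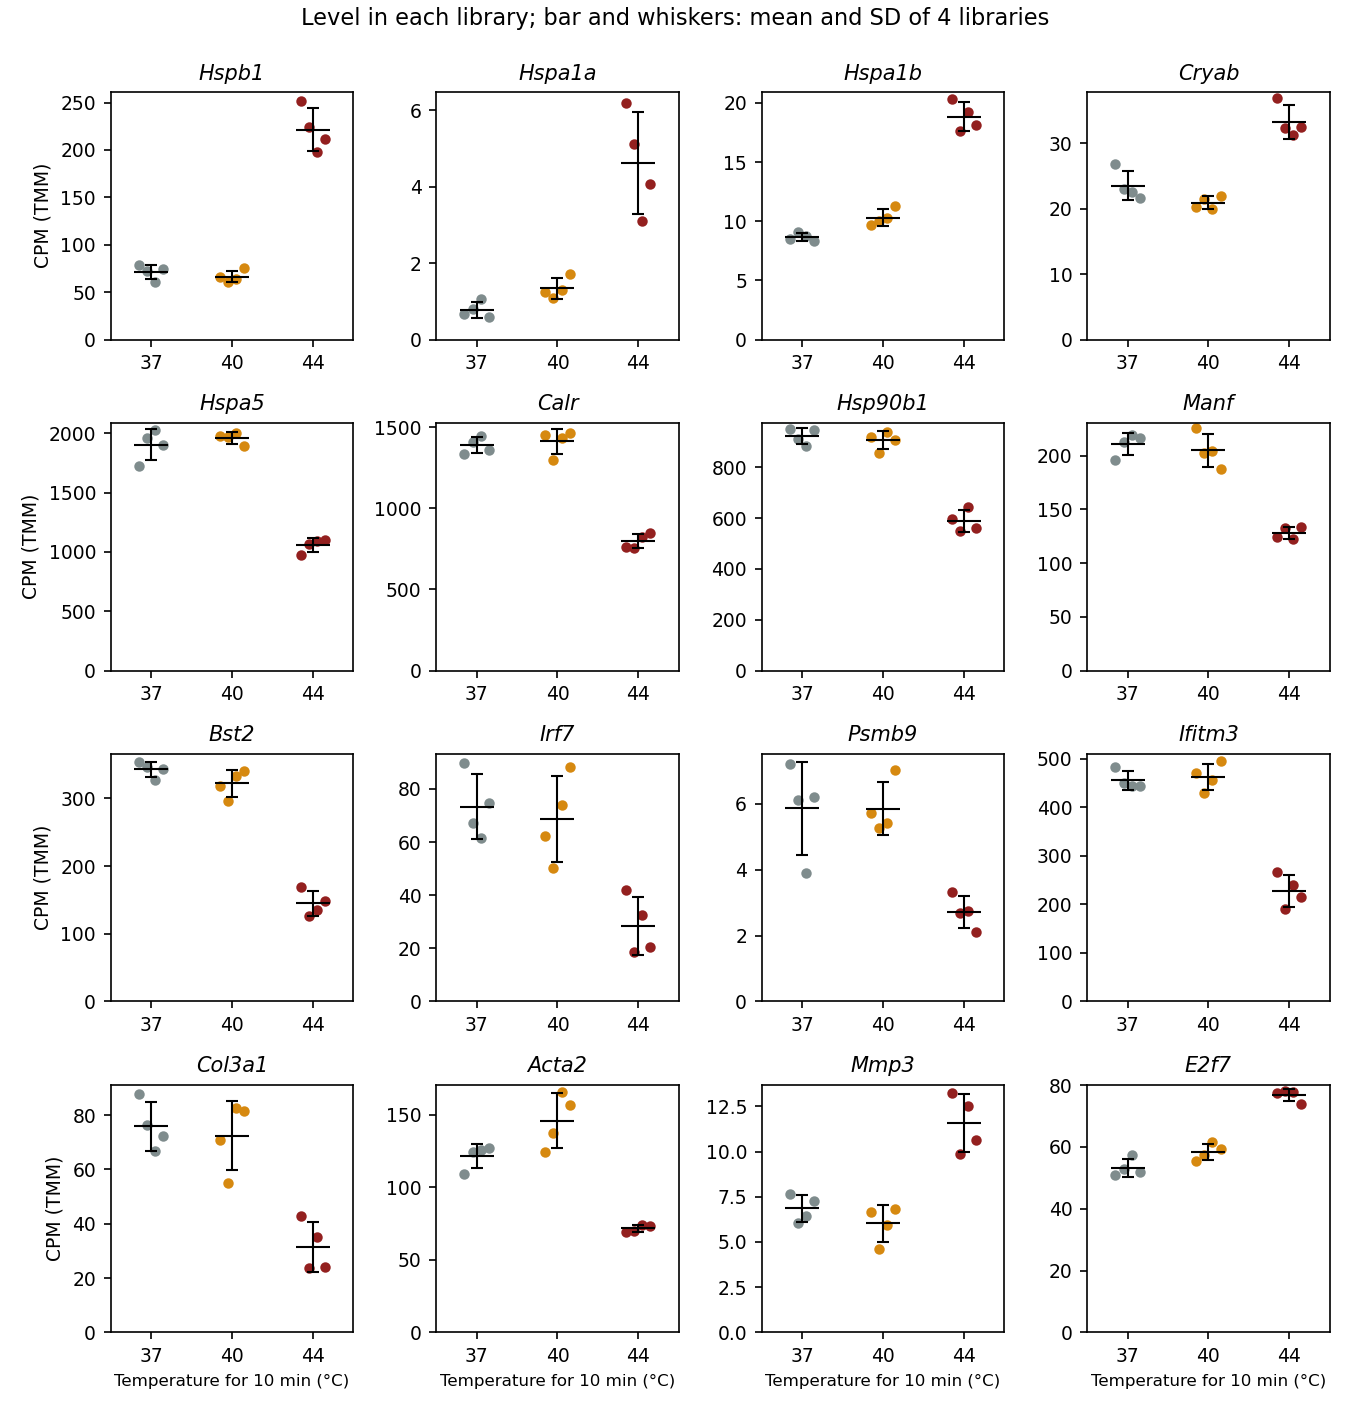
Levels of 16 genes in each of the 12 libraries in CPM (y axes start at 0) against the temperature of the 10 min exposure. Points are libraries and bars with whiskers the mean and SD of 4; in each panel the 44 °C points are apart from the 40 °C points, as for Hspb1 (61.1 to 75.01 against 198 to 252) and Bst2 (127 to 169 against 296 to 340.1).

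Most of the called inflammatory genes were lower at 44 °C. Of 39 measured genes of the NF-kB and inflammation list, 10 fell and 1 rose (28.2% called, against 5.02% of all genes), with a median of −0.209 and 29 of 39 below 0. Socs3, the feedback inhibitor of cytokine receptors, had 211, 180.4, 179 and 185 CPM at 40 °C and 139.6, 109, 115 and 105 CPM at 44 °C (−0.69 ± 0.083 on the log2 scale, adjusted p = 0.000471). Vcam1, a leukocyte adhesion molecule, went from 21.5 ± 1.296 to 12.4 ± 2.56 CPM (−0.79 ± 0.12 on the log2 scale, adjusted p = 0.00206), and the chemokine Cxcl5 from 51.4 ± 4.14 to 32.9 ± 6.97 CPM (−0.65 ± 0.12 on the log2 scale, adjusted p = 0.00733). Ccl2, a monocyte chemokine named after its values were seen, went from 21.02 ± 2.303 to 13.5 ± 1.95 CPM (−0.64 ± 0.13 on the log2 scale, adjusted p = 0.00939). The member that rose was Ptgs2, the inducible cyclooxygenase of prostaglandin synthesis, with 88.8, 106, 92.5 and 92.6 CPM at 40 °C and 131, 144, 132 and 159 CPM at 44 °C (0.58 ± 0.071 on the log2 scale, adjusted p = 0.0005199). The number that fell dropped to 6 without 40 °C replicate 3 or 44 °C replicate 4 and to 5 without 40 °C replicate 4.

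The cytokine-activated transcription factors Stat3 and Stat6, named after their values were seen, were lower by small amounts (−0.24 ± 0.047 on the log2 scale, adjusted p = 0.007804; −0.25 ± 0.048 on the log2 scale, adjusted p = 0.00757). Both had non-overlapping groups, 163 to 176 against 139 to 148 CPM for Stat3 and 157 to 167 against 133 to 140.3 CPM for Stat6.

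Most of the called fibrillar matrix genes were lower at 44 °C. Of 23 measured, 8 fell and 1 rose (39.1% called, against 5.02% of all genes), with a median of −0.457 and 21 of 23 below 0. Col3a1, a chain of type III collagen, had 70.8, 55.2, 82.5 and 81.4 CPM at 40 °C and 42.9, 23.7, 35.2 and 24.2 CPM at 44 °C (−1.20 ± 0.17 on the log2 scale, adjusted p = 0.00123). The groups did not overlap, with 44 °C replicate 1 the highest and 40 °C replicate 2 the lowest of their groups, the 2 libraries that lay far out on the shared axis in opposite senses. Col6a1 and Col6a2, chains of the beaded type VI collagen, fell together (−1.02 ± 0.19 on the log2 scale, adjusted p = 0.00666; −0.96 ± 0.17 on the log2 scale, adjusted p = 0.00436). Serpinh1, the collagen chaperone HSP47 of the ER, went from 341 to 398 CPM to 262 to 280.1 CPM (−0.46 ± 0.051 on the log2 scale, adjusted p = 0.000206). Vcan, the proteoglycan versican, named after its values were seen, went from 566 to 636 CPM to 392 to 419.5 CPM (−0.55 ± 0.049 on the log2 scale, adjusted p = 1.84e-05). Tnc, the adhesion-modulating tenascin C, also named after its values were seen, rose (0.61 ± 0.11 on the log2 scale, adjusted p = 0.00459). Omission of 40 °C replicate 2 gave 16 genes that fell, and omission of 44 °C replicate 1 gave 14.

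Acta2, smooth muscle actin, a gene of contractile and myofibroblast-like cells, had 124, 137, 166 and 156 CPM at 40 °C and 69.03, 69.96, 73.6 and 73.6 CPM at 44 °C (−1.03 ± 0.081 on the log2 scale, adjusted p = 7.13e-06). Its 44 °C libraries were close together and its mean at 37 °C was 122 CPM. The 9 smooth muscle markers summed to between 367 and 449 CPM at 40 °C and between 307 and 377 CPM at 44 °C (exact permutation p = 0.0571, two-sided, adjusted over 10 such sums p = 0.19), and 5 of them, among them Myh11 and Tagln, never passed 10 counts. Of the 16 mesenchymal markers, 14 were measured and 4 fell (28.6% called, against 3.14% of all genes that fell). They were S100a4 (−1.14 ± 0.19 on the log2 scale, adjusted p = 0.00287), Pdgfrb (−0.77 ± 0.15 on the log2 scale, adjusted p = 0.00784), Prrx1 (−0.33 ± 0.072 on the log2 scale, adjusted p = 0.0147, lost without 40 °C replicate 1) and Vim (−0.31 ± 0.056 on the log2 scale, adjusted p = 0.00528). The 10 summed levels tested gave a smallest p of 0.0286, the smallest that 4 against 4 allows, for the endothelial markers (5.02 ± 0.276 and 6.66 ± 0.886 CPM, adjusted p = 0.19).

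Genes for matrix breakdown moved in both directions. Of 22 measured, 3 rose and 2 fell (22.7% called, against 5.02% of all genes), with a median of −0.053. Mmp3, stromelysin-1, which cuts proteoglycans and activates other metalloproteinases, had 6.68, 4.62, 5.93 and 6.84 CPM at 40 °C and 13.3, 9.84, 12.5 and 10.6 CPM at 44 °C (0.94 ± 0.14 on the log2 scale, adjusted p = 0.00184). Plau, the urokinase that turns plasminogen into plasmin, had 179, 156, 232 and 256 CPM at 40 °C and 365, 298, 360.5 and 311 CPM at 44 °C (0.70 ± 0.13 on the log2 scale, adjusted p = 0.00733). For both genes all 44 °C libraries lay above the 40 °C libraries. Timp2, an inhibitor of metalloproteinases, fell from 257 ± 17.8 to 202 ± 13.7 CPM (−0.35 ± 0.064 on the log2 scale, adjusted p = 0.005903), and Htra1, a secreted serine protease of cartilage, from 199 ± 19.7 to 142 ± 11.6 CPM (−0.49 ± 0.077 on the log2 scale, adjusted p = 0.00206). Of 11 measured chondrogenic and cartilage matrix genes and 11 of hypertrophy and mineralization none was called, with medians of −0.252 and −0.092. Sox9, the master regulator of chondrogenesis, ranged over 34.3 to 59.3 CPM at 40 °C and 35.1 to 68.6 CPM at 44 °C (−0.08 ± 0.2 on the log2 scale, adjusted p = 0.872), and Runx2, the regulator of hypertrophy, over 61.2 to 65.04 and 58.4 to 63.7 CPM (−0.07 ± 0.056 on the log2 scale, adjusted p = 0.539). The sign of Sox9 turned without 44 °C replicate 2 or 4. Spp1, osteopontin, named after its values were seen, was at 3118 ± 390.4 and 2359 ± 441 CPM (−0.40 ± 0.12 on the log2 scale, adjusted p = 0.0746); it was called without 40 °C replicate 2 or 44 °C replicate 1.

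**Figure D4:**
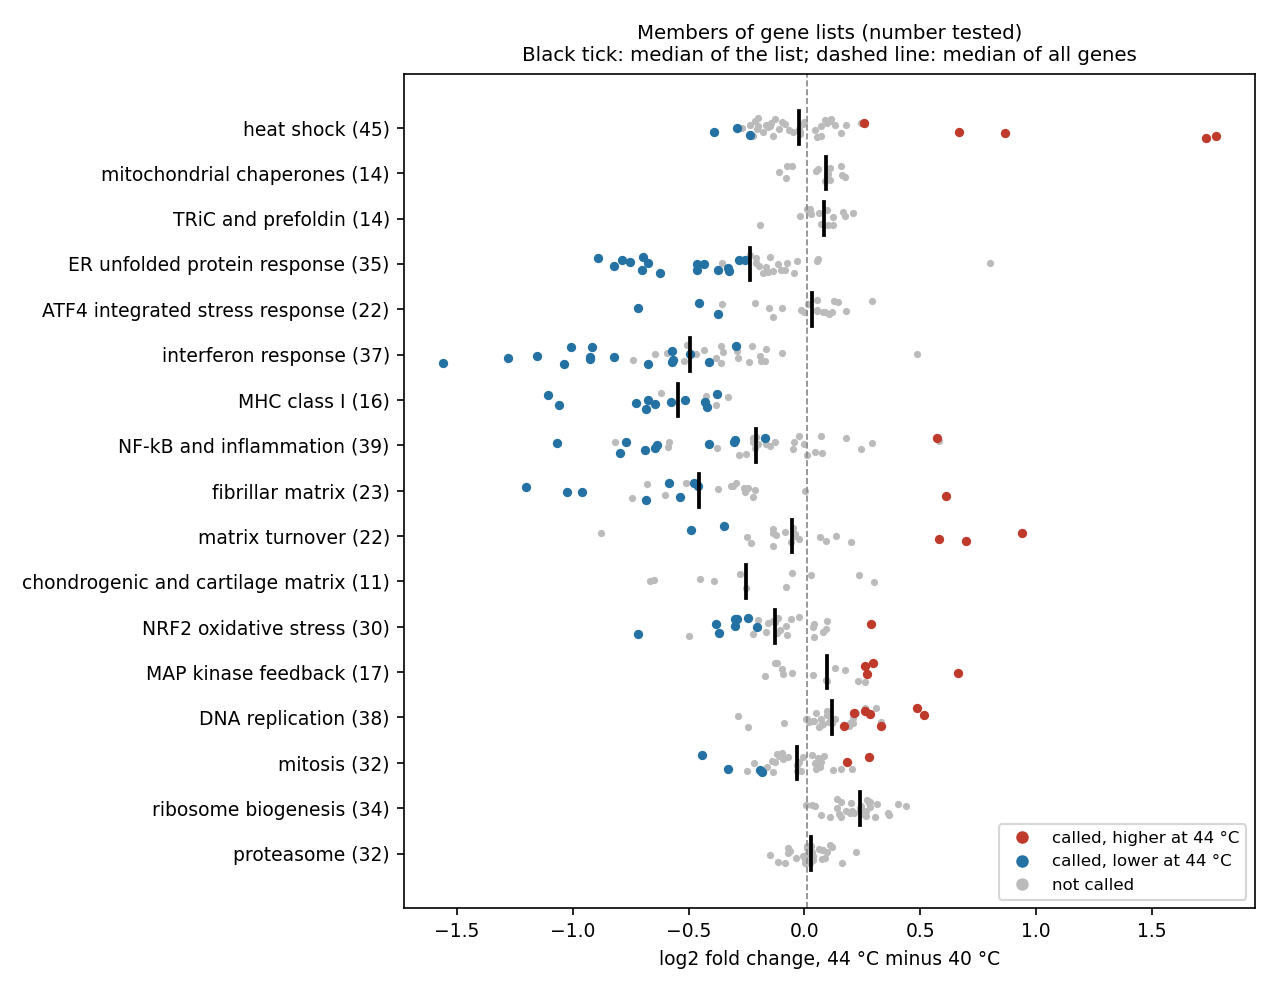
Log2 fold change (44 °C minus 40 °C, x axis) of the members of 17 gene lists, with the number tested in brackets. Points are genes, red where called higher, blue where called lower and grey otherwise; black ticks are list medians, for example −0.547 for MHC class I, −0.494 for the interferon response and 0.242 for ribosome biogenesis, and the dashed line is the median of all genes (0.01).

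Growth-related genes showed small increases in DNA replication. Of 38 measured genes 7 rose and none fell (18.4% called, against 1.88% of all genes that rose), with a median of 0.119 and 35 of 38 above 0. The primase genes Prim1 and Prim2 rose (0.49 ± 0.097 on the log2 scale, adjusted p = 0.00935; 0.33 ± 0.059 on the log2 scale, adjusted p = 0.00513), as did Pole, the leading-strand polymerase (0.26 ± 0.054 on the log2 scale, adjusted p = 0.0108). The number that rose was 4 without 40 °C replicate 3. Of 32 mitosis genes 2 rose and 4 fell (18.8% called, against 5.02% of all genes), among them Top2a, the topoisomerase of chromosome separation, up (0.28 ± 0.044 on the log2 scale, adjusted p = 0.00206) and Cdc20, the activator of anaphase, down (−0.44 ± 0.085 on the log2 scale, adjusted p = 0.00704). The proliferation marker Mki67 was at 789 ± 30.9 and 814 ± 26.9 CPM (0.05 ± 0.047 on the log2 scale, adjusted p = 0.6396), and Cdkn1a, the cell cycle inhibitor p21, at 87.3 ± 23.7 and 99.2 ± 26.5 CPM (0.18 ± 0.2 on the log2 scale, adjusted p = 0.654).

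Of 34 ribosome biogenesis genes none was called, and all 34 lay above 0, with a median of 0.242 and a range of 0.0087 to 0.4394. The list median was 0.217 for 40 °C against 37 °C and 0.465 for 44 °C against 37 °C, so a shift of similar size lay in the milder step. The median of 44 °C against 40 °C came to 0.123 when 44 °C replicate 2 was omitted and to 0.159 when 44 °C replicate 4 was. It was 0.370 with 40 °C replicate 2 omitted and 0.114 with the axis as a covariate that keeps the group means. Nop56, a box C/D snoRNA particle protein named after its values were seen, had 322, 473, 329.6 and 288 CPM at 40 °C and 296, 495, 374 and 511 CPM at 44 °C (0.25 ± 0.18 on the log2 scale, adjusted p = 0.485). Its 44 °C libraries split, with replicate 1 as low as the 40 °C group, and replicate 2 at 40 °C close to the upper 44 °C libraries, as on the shared axis. Without 40 °C replicate 2 the list had 2 called genes, without 44 °C replicate 1 it had 3, and without any other single library it had none. Without both it had 28, but that setting was added after seeing the data and removes the libraries at the ends of the shared axis, so the direction of this gain was set by the choice.

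Transcription factors were called at about the rate of other genes, 41 of 922 (19 rose, 22 fell; 4.45% against 5.06%). Families are those given in the deposited table. The bZIP, E2F and MYB families were chosen after their calls were seen, and many other families had no called gene. Of 39 bZIP factors 5 fell and none rose, against 3.14% of all genes that fell. They were Nfe2l1 (lost without 40 °C replicate 4), Nfe2l2, Mafg, Xbp1 and Tef, of which all but Tef were named after their values were seen. Nfe2l2 encodes NRF2, the regulator of antioxidant genes, and went from 177 to 183 CPM to 142 to 159 CPM (−0.24 ± 0.047 on the log2 scale, adjusted p = 0.00767). Of 30 NRF2 pathway genes 8 fell and 1, Ftl1 for ferritin light chain, rose (30% called, against 5.02% of all genes), with a median of −0.125; those that fell included the cystine transporter Slc7a11 and G6pdx, the entry enzyme of the pentose phosphate pathway (−0.37 ± 0.05 on the log2 scale, adjusted p = 0.000856). Without 40 °C replicate 1 the number that fell was 5, and Ftl1 lost its call without 40 °C replicate 1 or 4 or 44 °C replicate 2. Of 10 E2F factors 2 rose and of 22 MYB factors 3 rose, against 1.88% of all genes that rose. The atypical E2F repressor gene E2f7, named like the next 2 genes after its values were seen, had 55.5, 57.3, 61.6 and 59.3 CPM at 40 °C and 77.4, 78.2, 77.6 and 74.03 CPM at 44 °C (0.39 ± 0.056 on the log2 scale, adjusted p = 0.00113). Mybl1 and Mybl2, MYB factors, of which Mybl2 drives cell cycle genes, rose too (0.40 ± 0.069 on the log2 scale, adjusted p = 0.00406; 0.45 ± 0.092 on the log2 scale, adjusted p = 0.0106).

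Some signalling feedback genes rose. Of 17 MAP kinase feedback genes 4 rose and none fell (23.5% called, against 1.88% of all genes that rose), with a median of 0.097. Dusp5, a nuclear ERK phosphatase, had 31.2, 31.5, 36.8 and 35.6 CPM at 40 °C and 51.8, 59.6, 51.99 and 50.8 CPM at 44 °C (0.66 ± 0.094 on the log2 scale, adjusted p = 0.00113). Errfi1, an inhibitor of EGF receptors, rose by a small step (0.26 ± 0.046 on the log2 scale, adjusted p = 0.00436). Dusp6 and Dusp16 also rose (0.269 and 0.295 on the log2 scale, adjusted p = 0.0316 and 0.0357). Both calls were lost without 37 °C replicate 2 or 4, 40 °C replicate 1, 2 or 3, or 44 °C replicate 1 or 3. That of Dusp16 was also lost without 40 °C replicate 4 or 44 °C replicate 2. The YAP and CCN list had 20 measured genes, of which 1 rose and 2 fell (15% called, against 5.02% of all genes), with a median of 0.122. Cyr61, a matricellular target of YAP and SRF, had 218, 252, 306 and 308 CPM at 40 °C and 463, 421, 394 and 425 CPM at 44 °C (0.65 ± 0.093 on the log2 scale, adjusted p = 0.00113), while its mean at 37 °C was 206 CPM. Ctgf, its close relative, was at 26.9 ± 8.79 and 36.9 ± 2.22 CPM (0.45 ± 0.16 on the log2 scale, adjusted p = 0.131) and was called without 40 °C replicate 3. Wisp2 and Wisp1 fell (−1.48 and −0.323 on the log2 scale, adjusted p = 0.0212 and 0.0356). Both of these calls were lost without 40 °C replicate 3 or 4 or 44 °C replicate 2. The immediate early genes Fos and Atf3 were low, at 3.06 ± 0.451 and 3.42 ± 0.264 CPM (0.16 ± 0.17 on the log2 scale, adjusted p = 0.632) and 2.77 ± 0.519 and 3.598 ± 0.406 CPM (0.38 ± 0.22 on the log2 scale, adjusted p = 0.347). Among 34 growth factor signalling genes 3 fell and none rose (8.82% called, against 3.14% of all genes that fell): Igfbp4 and Igfbp6, which bind insulin-like growth factors (−0.42 ± 0.076 on the log2 scale, adjusted p = 0.00529; −0.68 ± 0.088 on the log2 scale, adjusted p = 0.000657), and Ptch1, the hedgehog receptor (−0.30 ± 0.057 on the log2 scale, adjusted p = 0.00704).

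The remaining genes at the top of the comparison came from no list. Sdcbp2, the scaffold syntenin-2, went from 7.21 to 11.4 CPM to 15.7 to 18.7 CPM (0.93 ± 0.13 on the log2 scale, adjusted p = 0.00103), Igsf9b, a cell adhesion molecule, from 5.78 to 7.97 CPM to 10.1 to 11.6 CPM (0.72 ± 0.13 on the log2 scale, adjusted p = 0.00512), and Ttn, the giant muscle protein titin, from 2.45 to 3.36 CPM to 4.92 to 5.65 CPM (0.89 ± 0.15 on the log2 scale, adjusted p = 0.00344). All 3 stood at low levels. Their groups did not overlap, which was a condition of the rule that named them. Fbxo48, an F-box protein, rose (0.70 ± 0.15 on the log2 scale, adjusted p = 0.0145; lost without 40 °C replicate 1). Ccdc88c and Ccdc114 rose with weaker support (0.71 ± 0.15 on the log2 scale, adjusted p = 0.0147; 0.68 ± 0.17 on the log2 scale, adjusted p = 0.0304): both calls were lost without 40 °C replicate 1, 40 °C replicate 4, 44 °C replicate 2 or 44 °C replicate 4, and that of Ccdc114 also without 40 °C replicate 3. At the lower end Cfap97d2, an uncharacterised gene, went from 6.92 to 8.68 CPM to 3.16 to 4.32 CPM (−1.04 ± 0.13 on the log2 scale, adjusted p = 0.000531).

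Whether the step from 40 °C to 44 °C differed from the step from 37 °C to 40 °C was tested as a contrast of its own, chosen after seeing the data, in which the 40 °C libraries enter both steps. It was called for 16 genes, 2 with a larger rise (Hspb1 and Cryab) and 14 with a larger fall, and 1128 genes had an unadjusted p under 0.05. For Hspb1 the log2 fold change of the step to 44 °C exceeded that of the step to 40 °C by 1.84 ± 0.16 (SE, adjusted p = 0.000165). Of the 14 genes with a larger fall, 7 were ER chaperones or isomerases of the ER list (Hspa5, Calr, Hsp90b1, Manf, Pdia3, Pdia4 and Pdia6). The others were Serpinh1 and the ER lectin Mlec, the interferon-stimulated Bst2 and Ifitm3, and Acta2, Vcan and Lgals3bp. Hspa5 moved by 0.04 in the step to 40 °C and by −0.89 in the step to 44 °C (adjusted p = 0.000355 for the difference), and Bst2 by −0.09 and −1.16 (adjusted p = 0.00182). Hspa1b moved by 0.25 and 0.87, a difference that did not pass the test (adjusted p = 0.232). Such genes numbered 6 when 37 °C replicate 2, 3 or 4 or 40 °C replicate 1 or 3 was omitted. Omission of 44 °C replicate 3 left 7, of 40 °C replicate 4 left 8, of 44 °C replicate 2 or 4 left 9, and of 44 °C replicate 1 gave 33.

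**Figure D5:**
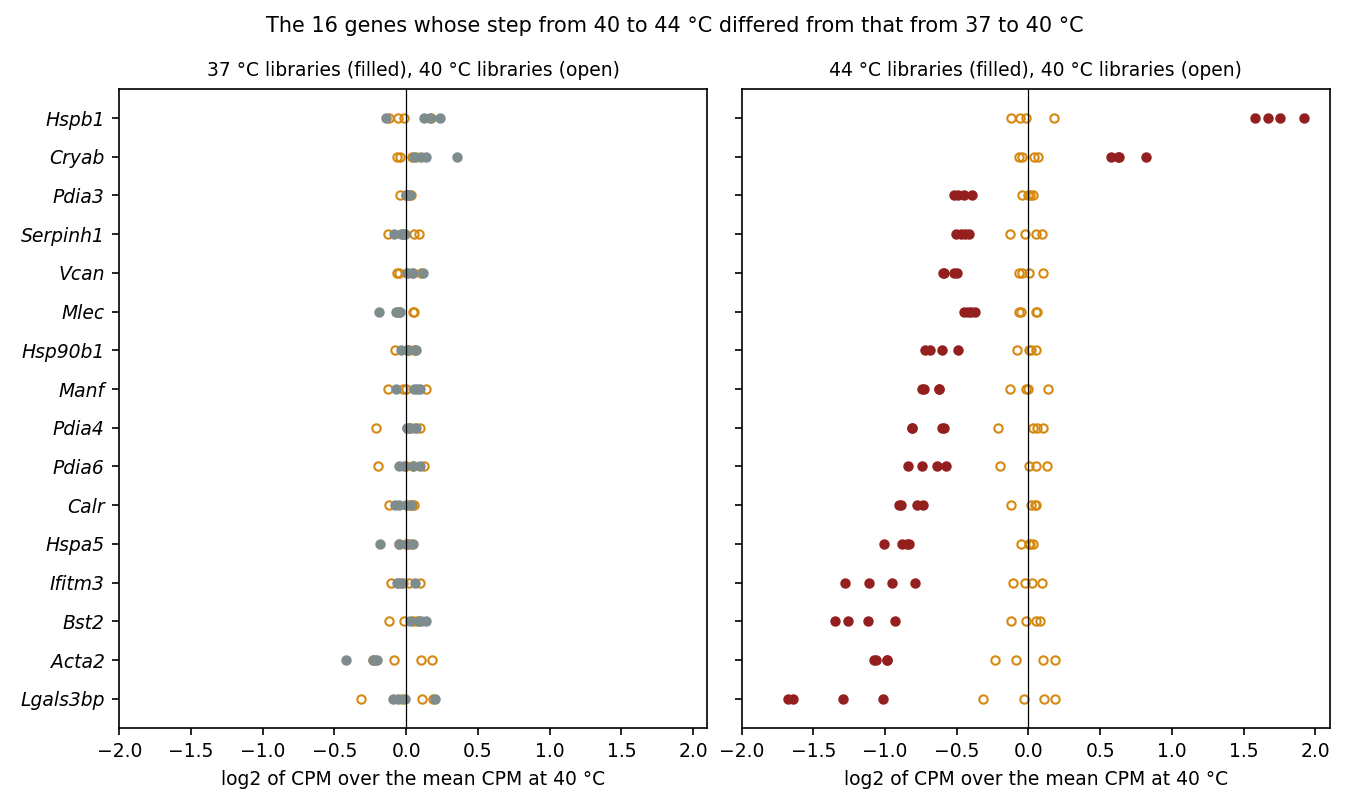
Levels of the 16 genes whose step from 40 °C to 44 °C differed from that from 37 °C to 40 °C. The x axis is the log2 ratio of each library's CPM to the 40 °C mean, with 40 °C libraries as open points and 37 °C (left) or 44 °C (right) libraries as filled points; the 44 °C points are apart from the 40 °C points in all 16 genes, and the 37 °C points lie among or close to them.

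The share of genes called also differed by abundance and length. Over 4 equal classes of mean level, from the lowest, 0.998%, 3.38%, 6.27% and 9.43% of genes were called. Over 4 equal classes of gene length in the deposited table, from the shortest, 3.8%, 4.71%, 5.24% and 6.32% were called, and 71.5%, 67.1%, 60.8% and 55.3% of those had fallen. The part of length in the direction of the calls was not tested. Of the called genes 699 were protein coding and 25 of other types.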

How the data were processed

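Poly-A RNA of 12 ATDC5 libraries was sequenced. The authors deposited 1 table of raw counts per gene with 1 column per library, replicates not pooled, together with gene length in bases. The submitters' processing notes list the build mm10 and the tools featureCounts 1.5.0-p3, HISAT2 2.0.5, fastp and StringTie 1.3.3b. Their roles, strand use and handling of multiply mapped reads are not given in the sources used here, so reads of overlapping, antisense or near-identical genes may be mixed.

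Columns were matched to samples by their titles. Of 54532 genes, 28743 had a read and 14424 passed filterByExpr (minimum count 10, minimum total 15), which kept 99.86% to 99.9% of the counts. Counts were fitted in R 4.3.3 with edgeR 4.0.16: TMM scaling, 1 mean per temperature over all 12 libraries and two-sided quasi-likelihood F-tests. Benjamini-Hochberg adjustment covered all genes tested, with calls at an adjusted p under 0.05. The standard error of a log2 fold change is its size divided by the square root of F. The biological coefficient of variation was 0.102. Within groups, 18 pairs of libraries differed by a chi-square of 2.85 to 20.9 per gene, so none was a copy. The fit was checked on simulated counts.

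Comparisons of summed CPM used exact permutation tests over samples. Named genes were the 12 called genes with the highest and 12 with the lowest change among protein-coding or lincRNA genes that reached a mean of 5 CPM, had groups apart and no predicted-gene name, the 4 called members with the smallest p of each list, and a set of stress, growth and cartilage genes; others are marked. Not every gene this rule names is reported here. Members, tests and the 47 lists (1073 symbols, 1070 matched, 948 measured) were chosen with earlier results of these data known. Alternatives were other scalings, other low-count filters, DESeq2 1.42.0, a stricter threshold, the 8 heated libraries alone, the replicate number as a block, a covariate for the within-group axis, and leaving out libraries.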

Additional observations from a re-analysis of the deposited data

Results flagged for a closer look

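A library stood apart from the other 3 of its group where its gap to the nearest, divided by the range of the group, passed Dixon's 95% critical value for 4 samples. Of 306 groups of 4 tested among the named genes 17 did so, where chance gives about 1 in 20, and no explanation was weighed. In 40 °C replicate 1 the high values were Gbp3 at 55.6 CPM (52.4 to 52.9 in the others, ratio 0.848), Il6 at 59.2 CPM (38.5 to 40.8 in the others, ratio 0.888), Arntl at 35.4 CPM (33.5 to 33.7 in the others, ratio 0.861). In 40 °C replicate 1 the low value was Cdk1 at 246 CPM (265 to 269 in the others, ratio 0.836). In 40 °C replicate 2 the high values were Rars at 383 CPM (338 to 344 in the others, ratio 0.874), Prim1 at 102 CPM (76.1 to 79.9 in the others, ratio 0.854). In 44 °C replicate 1 the high value was Isg15 at 19.7 CPM (11.5 to 12.3 in the others, ratio 0.894). In 44 °C replicate 1 the low value was Errfi1 at 173 CPM (185 to 187 in the others, ratio 0.859). In 44 °C replicate 2 the high values were Aldh1l2 at 49.6 CPM (42.5 to 43.2 in the others, ratio 0.9), Keap1 at 67.8 CPM (65.6 to 65.9 in the others, ratio 0.836), Dusp5 at 59.6 CPM (50.8 to 51.99 in the others, ratio 0.861). In 44 °C replicate 3 the high values were Stat3 at 148 CPM (139 to 140.3 in the others, ratio 0.859), Top2a at 1919 CPM (1773 to 1793 in the others, ratio 0.863). In 44 °C replicate 3 the low values were Stim1 at 58.8 CPM (63.3 to 64.1 in the others, ratio 0.843), Ttn at 4.92 CPM (5.54 to 5.65 in the others, ratio 0.859). In 44 °C replicate 4 the low values were Fos at 3.03 CPM (3.504 to 3.58 in the others, ratio 0.857), Igsf9b at 10.1 CPM (11.4 to 11.6 in the others, ratio 0.844).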

How the results depend on the processing

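The main limits are the within-group axis, the unstated interval after heating and the 4 libraries per group. Of 129 called named genes 87 kept their call in each of the 24 settings in which they could be fitted and 91 with each single library left out. The calls numbered 1220 with DESeq2 (450 higher, 770 lower), 334 with the 8 heated libraries alone (103, 231), 270 at an adjusted p under 0.01 (79, 191), 3217 with the axis of within-group variation as covariate (1554, 1663), 2535 with a version of it that keeps the group means (1159, 1376), and 2587 without 40 °C replicate 2 and 44 °C replicate 1 (1214, 1373), the last pair added after seeing the data.

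Replicate numbers did not pair the libraries: correlations of same-numbered 40 °C and 44 °C deviations were 0.052, 0.319, 0.062 and −0.207, and not every library correlated best with its own number. The replicate block gave 901 calls over 12 libraries, and 398 over the 8 (104 higher, 294 lower). That last fit gave 6 NF-kB genes that fell, and 3 DNA replication genes (median 0.110) and 1 ribosome biogenesis gene that rose.

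Genes whose steps differed numbered 116 with DESeq2, 10 with upper quartile scaling, 7 with library totals, 61 without the filter on low counts, 527 and 522 with the 2 axes, and 123 without both libraries. With the first axis the members that fell were 13 for heat shock, 26 for ER, 29 for interferon, 21 for NF-kB, 18 for fibrillar matrix and 16 for NRF2, and those that rose 19 for DNA replication and 30 for ribosome biogenesis. With the second they were 12, 25, 25, 18 (fibrillar matrix) and 16 (NRF2), and 17 (DNA replication, median 0.113) and 13. Without both libraries 7 heat shock, 28 interferon, 17 NF-kB and 19 fibrillar matrix genes fell and 15 DNA replication and 28 ribosome biogenesis genes rose, with medians of 0.022 for heat shock, −0.295 for ER, −0.713 for fibrillar matrix and 0.169 for DNA replication. The 8 libraries alone gave 10 interferon, 5 NF-kB and 5 NRF2 genes that fell and 4 DNA replication genes that rose (median 0.111). DESeq2 gave 13 fibrillar matrix and 12 DNA replication genes, library totals 11 DNA replication genes (median 0.140), and no filter 14 fibrillar matrix and 2 ribosome biogenesis genes.

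With 1 library left out at a time, calls ranged from 394 to 1265 (higher 117 to 474, lower 277 to 791) and genes whose steps differed from 6 to 33. Members that fell ranged from 2 to 5 for heat shock (median −0.078 to 0.004), 5 to 10 for NF-kB, 6 to 16 for fibrillar matrix and 5 to 10 for NRF2 (median −0.179 to −0.105), and the medians of ER and fibrillar matrix reached −0.227 and −0.405 at their smallest. Interferon members that fell ranged from 11 to 24 (median −0.652 to −0.414). Members that rose ranged from 4 to 8 for DNA replication (median 0.106 to 0.153) and 0 to 3 for ribosome biogenesis. Log2 fold changes that turned sign were Sox9 (−0.300 to 0.045), Acan (−0.389 to 0.167), Hsp90aa1 (−0.009 to 0.120) and Cirbp (−0.022 to 0.239). Differences in the mitochondrial share (−0.0713 to 0.0557 percentage points) and in skeletal muscle (−0.016 to 0.223) and neural (−3.29 to 1.26) marker CPM turned too. Without both libraries Hsph1 (0.041, lowest −0.311 with 1 left out), Rbm3 (0.036, lowest −0.124), Cirbp (−0.100) and Cdkn1a (−0.086, highest 0.353) turned sign, Sox9 was −0.444 and Hsp90aa1 0.176. Sox9 also turned with the second axis (0.040). The cause of these changes was not tested.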

Other observations

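Among 10 measured metallothionein and iron genes 1 rose and 1 fell (20% called, against 5.02% of all genes), with a median of 0.086. Mt2, a metallothionein that binds zinc and copper, went from 41.5 ± 4.103 to 26.2 ± 4.95 CPM (−0.66 ± 0.14 on the log2 scale, adjusted p = 0.0139), and its mean at 37 °C was 65.5 CPM. Of 32 lysosome and autophagy genes 3 fell and none rose (9.38% called, against 3.14% of all genes that fell), with a median of −0.153. They were Npc2, a carrier of cholesterol out of lysosomes (−0.46 ± 0.077 on the log2 scale, adjusted p = 0.003196), Glb1, beta-galactosidase (−0.52 ± 0.11 on the log2 scale, adjusted p = 0.0156), and the protease Ctsd (−0.37 ± 0.097 on the log2 scale, adjusted p = 0.0378). The calls of Glb1 and Ctsd were lost without 40 °C replicate 3 or 4 or 44 °C replicate 2 or 4, and that of Ctsd also without 40 °C replicate 1, 44 °C replicate 3 or 37 °C replicate 2 or 4. Fas, the death receptor, went from 7.92 to 10.6 CPM to 4.97 to 5.97 CPM (−0.82 ± 0.16 on the log2 scale, adjusted p = 0.00673), and Phlda3, another p53 target, from 119.9 to 139 CPM to 90.2 to 108 CPM (−0.43 ± 0.063 on the log2 scale, adjusted p = 0.00132). These were the 2 called genes of 22 measured p53 targets (9.09%, against 3.14% of all genes that fell). The median of that list was 0.029, and 13 of 22 lay above 0.

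Stim1, the ER calcium sensor that opens store-operated channels, rose from 42.5 to 51.9 CPM to 58.8 to 64.1 CPM (0.36 ± 0.076 on the log2 scale, adjusted p = 0.0130), the only called gene of 12 measured calcium channel genes (8.33%, against 5.02% of all genes). Idi1, an isoprenoid isomerase, was the only called gene of 25 of cholesterol synthesis, 4% of them against 5.02% of all genes (0.40 ± 0.084 on the log2 scale, adjusted p = 0.0125). Of 20 circadian clock genes 10% were called, against 5.02% of all genes: Tef fell (−0.62 ± 0.11 on the log2 scale, adjusted p = 0.00365) and Arntl, the clock activator BMAL1, rose (0.25 ± 0.065 on the log2 scale, adjusted p = 0.0408). The call of Arntl was lost without any 1 of the 8 heated libraries other than 44 °C replicates 1 and 2, and without 37 °C replicate 2, 3 or 4. The cold-inducible RNA-binding genes Rbm3 and Cirbp were not called (−0.07 ± 0.073 on the log2 scale, adjusted p = 0.647; 0.14 ± 0.16 on the log2 scale, adjusted p = 0.691). None of 41 cytosolic ribosomal protein genes, 21 apoptosis regulators or 12 mitochondrially encoded genes was called, and mitochondrially encoded genes took 1.91% ± 0.166 of counts at 40 °C and 1.90% ± 0.0927 at 44 °C (exact permutation p = 0.886, two-sided).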
